A study of Mus musculus with 12 samples.

Results

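The genes that license DNA replication were followed from mouse colonic crypts into confluent colonic monolayers. The set held 10 genes taken by symbol: *Mcm2*, *Mcm3*, *Mcm4*, *Mcm5*, *Mcm6*, *Mcm7*, *Mcm10*, *Cdt1*, *Cdc6* and *Pcna*. All 10 were found among the 23420 symbols of each count file, and all 10 were among the 12863 genes that passed the filter on low counts. RNA of 12 libraries was sequenced, 3 of isolated colonic crypts and 3 each of monolayers on day 3, day 4 and day 5. Per the labels, crypts came from a wild-type mouse aged 6 to 10 weeks. The monolayers grew from crypt cells that had first been expanded on collagen and were then plated on scaffolds with a gradient of cross-linking. None of the 4 groups carried a drug treatment or an engineered allele in the labels. Transepithelial resistance was given as 526 ± 56 ohm cm2 on day 3, 623 ± 15 on day 4 and 407 ± 53 on day 5, with no name for the error. Crypts were tissue and monolayers were culture, so the effect of culture and that of the substrate cannot be told apart. The labels do not say whether the libraries of a group came from separate animals or cultures, so the spread behind each p-value may be technical.

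Licensing is the step that prepares chromosomes for replication before S phase begins. The origin recognition complex and CDC6 mark the origin, and CDT1 brings in the ring-shaped helicase built of MCM2 to MCM7. In S phase CDC45 and the GINS complex turn the loaded ring into an active helicase, with MCM10 needed for that step, and PCNA then clamps the polymerases to DNA. Many of these genes are classical targets of the E2F transcription factors. In the colon, replicating cells lie in the lower crypt, and cells stop dividing as they move up and differentiate.

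Promoter stretches were read to show which members carry an E2F-type word close to their start. RefSeq windows (GRCm38.p6) of 300 bases, 250 before and 50 after the start, were matched for 9 of the 10 members. The words TTTCCCGC, TTTGGCGC and TTTCGCGC were searched on both strands, and they can overlap one another. They were present in 6 of these 9 genes and in 6 of their 10 windows, beside 1.845% of all 32851 windows. *Mcm5*, *Mcm6*, *Mcm7* and *Cdc6* held a word before the start. *Mcm3* and *Cdt1* held one only after the start, and *Mcm2*, *Mcm10* and *Pcna* held none in the window. On day 5 against crypts, log2 fold changes were -4.61 for *Mcm5*, -4.14 for *Mcm6*, -2.16 for *Mcm7* and -1.31 for *Cdc6*. They were -3.81 for *Mcm3* and -2.49 for *Cdt1*. Without a word, *Mcm2* changed by -2.83, *Mcm10* by -2.20 and *Pcna* by 0.31. A link between words and changes was not tested. The stretches below are the parts before the start that carry the words, with the words in capitals, and the *Pcna* stretch is shown as that of the member not called lower on any day. They lie at chr8:75109316-75109407 (plus strand) for *Mcm5*, chr1:128359706-128359855 (minus) for *Mcm6*, chr5:138172001-138172088 (minus) for *Mcm7*, chr11:98907973-98908060 (plus) for *Cdc6* and chr2:132253181-132253330 (minus) for *Pcna*. Each is written 5′ to 3′ on the strand of its gene.
Mcm5: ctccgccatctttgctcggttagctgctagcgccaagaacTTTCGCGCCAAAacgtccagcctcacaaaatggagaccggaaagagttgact
Mcm6: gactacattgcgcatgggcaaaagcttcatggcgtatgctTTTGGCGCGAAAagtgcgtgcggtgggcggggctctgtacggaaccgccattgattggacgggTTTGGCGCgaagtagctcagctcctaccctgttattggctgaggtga
Mcm7: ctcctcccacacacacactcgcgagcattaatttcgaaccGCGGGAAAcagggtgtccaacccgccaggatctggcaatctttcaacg
Cdc6: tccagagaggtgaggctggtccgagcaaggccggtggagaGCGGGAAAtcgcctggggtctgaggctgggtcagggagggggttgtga
Pcna: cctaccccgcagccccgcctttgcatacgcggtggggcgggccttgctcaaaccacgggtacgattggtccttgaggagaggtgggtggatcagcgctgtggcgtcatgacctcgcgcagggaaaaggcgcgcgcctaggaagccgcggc

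In *Mcm5* and in the upstream word of *Mcm6* a pair of words overlap on opposite strands. A match describes letters and not a bound factor, and a window without a word says nothing of other words or of sites farther away. The CCAAT box (CCAAT) was present in 7 of the 9 genes and in 8 of their 10 windows, beside 37.408% of all windows. The cell cycle homology region (TTTGAA or TTCGAA) was present in *Mcm2* and *Mcm7*, 2 of 9 genes and 2 of 10 windows, beside 19.226% of all windows. For genes of mitosis the order was the other way: 1 of 26 matched genes held an E2F-type word and 20 of 26 held a cell cycle homology region. Of 24 matched genes for replication fork enzymes, 7 held an E2F-type word and 3 a cell cycle homology region.

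Gene counts per library ranged from 4518314 to 14290393, and 12293 to 15250 genes had a count. Day 5 replicate 1 had the fewest detected genes. Day 5 counts of lower genes against crypts, and the member counts between days, are also given without it. Counts for the other lists between day 3 and day 5 are not. Levels are CPM, the count of a gene scaled to the library total and its TMM factor, given as mean ± SD over 3 libraries. Calls rest on edgeR's quasi-likelihood test with an adjusted p under 0.05. Overlap of groups is only a description of 3 libraries each, and the share of all genes without overlap was not counted. Groups without overlap also occurred in changes that were not called, such as *Cdc6* on day 3 against crypts. Epithelial markers were high in all groups, with sums of 9255 to 10560 CPM in crypts and 10950 to 14760 CPM in monolayers. Leukocyte markers summed to 20.6 to 45.9 CPM in crypts, 29.4 to 40.4 on day 3, 35.03 to 51.64 on day 4 and 24.1 to 25.6 on day 5. The leukocyte gene *Ptprc* fell from 17.0 ± 6.48 CPM in crypts to 0.266 ± 0.166 on day 3 (edgeR adjusted p = 4.559e-06), while *Cd68*, a macrophage marker of lysosomes, rose from 1.35 ± 0.743 to 31.2 ± 6.48 (adjusted p = 2.258e-10). *Cd68* made up most of the leukocyte sums in monolayers. It was at 26.9 to 38.6 CPM on day 3, 33.5 to 45.5 on day 4 and 19.9 to 24.8 on day 5. Of the 12 leukocyte markers, 5 were at 0 in every day 3 library, 8 on day 4 and 7 on day 5. Mesenchyme and vessel markers summed to 9.47 to 77.7 CPM in crypts and to 0.841 to 5.04 in monolayers. *Cd3g*, *Nkg7* and *Cd52* of the leukocyte list, and *Dcn* and *Lum* of the mesenchyme list were at 0 in all 9 monolayer libraries. The part of these other cells in the differences from crypts was not tested. In bulk RNA, fewer replicating cells and less RNA per cell cannot be told apart.

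*Mcm2* to *Mcm7*, *Mcm10* and *Cdt1* were lower than in crypts on all 3 monolayer days, *Cdc6* on day 4 and day 5, and *Pcna* was not called against crypts on any day. The 3 comparisons with crypts share the same 3 crypt libraries. The share of gene counts taken by *Malat1*, a nuclear RNA, moved in the same order as the groups, at 2.02 to 2.34% in crypts, 5.65 to 5.98% on day 3, 7.40 to 8.05% on day 4 and 9.30 to 12.2% on day 5. Reads in genes were 31.7 to 35.6% of all reads in crypts and 41.8 to 43.5% in monolayers. The part of either in the changes was not tested. On day 3, 8 of 10 members were lower and 0 higher, beside 27.9% of all genes lower and 28.4% higher. On day 4 it was 9 of 10 lower and 0 higher (28.4% and 28.7% of all genes), and on day 5 again 9 and 0 (28.9% and 28.4%). The median log2 fold change of the members was -1.07, -1.76 and -2.35 at the 3 days, beside -0.03, -0.02 and -0.03 over all genes tested. At an unadjusted p under 0.05, edgeR gave 0 members higher on day 3 and day 4 and 1, *Pcna*, on day 5, and DESeq2 called 0 higher at each of these days. Without day 3 replicate 2 the count on day 3 was 5 of 10, and without day 5 replicate 1 the count on day 5 was 9. With library totals in place of TMM the median of all genes moved to -0.20, -0.19 and -0.23. The share of called genes that were lower then moved from 49.6, 49.8 and 50.4% to 60.1, 59.9 and 62.2%.

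**Figure D1:**
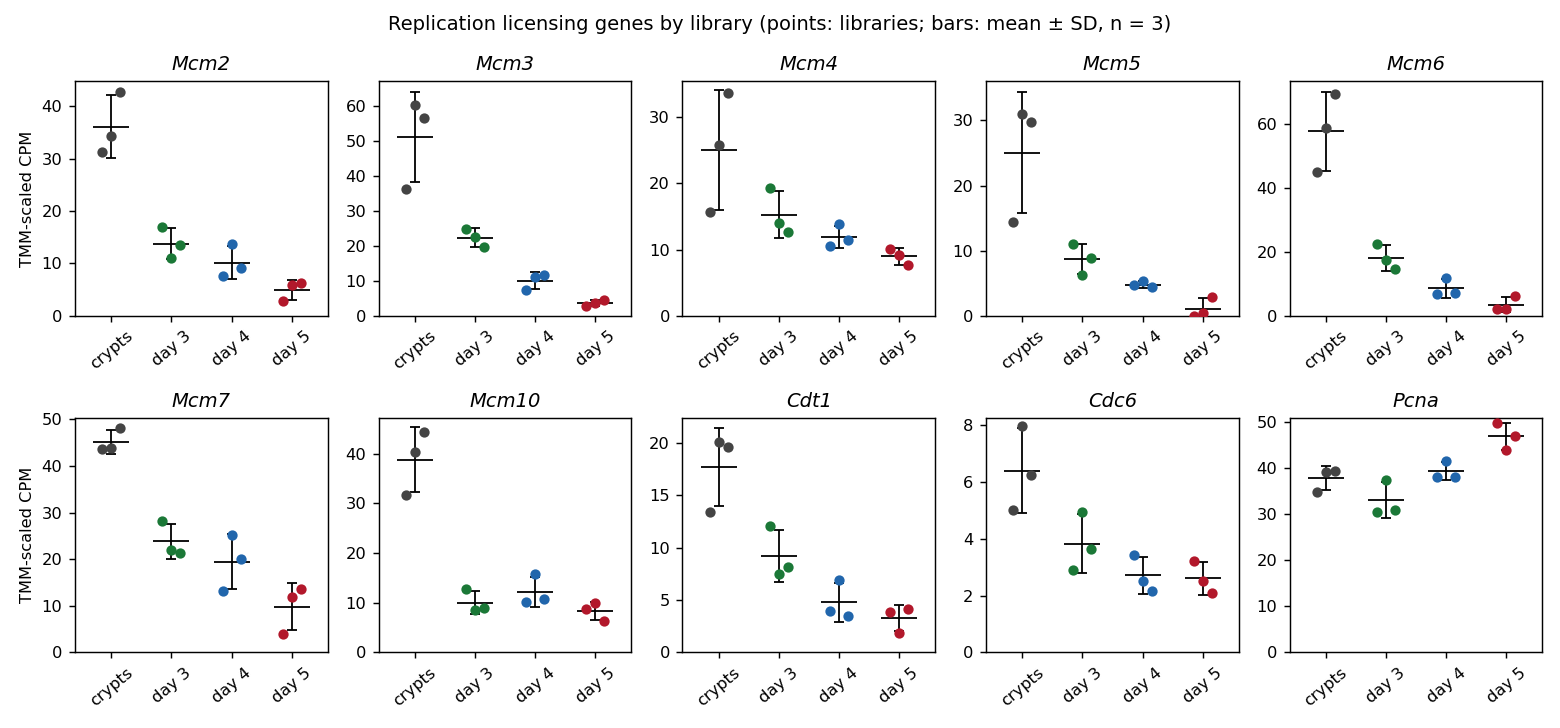
Level of each licensing gene in every library, as TMM-scaled CPM on a linear axis from 0, with points for libraries and bars for mean ± SD (n = 3). *Mcm3*, *Mcm5* and *Mcm6* show no overlap between successive groups, each lower than the one before, while *Pcna* is highest on day 5. From day 3 to day 4 only *Mcm3* is called lower by edgeR. The share of all genes without overlap was not counted.

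MCM3, MCM5 and MCM6 are ring subunits of the helicase. *Mcm3* was at 36.2, 60.2 and 56.6 CPM in crypts, 24.8, 22.5 and 19.7 on day 3, 7.32, 11.1 and 11.6 on day 4, and 2.82, 3.58 and 4.50 on day 5. Successive groups did not overlap. *Mcm3* was lower than in crypts by a log2 fold change of -1.199 ± 0.22 (SE) on day 3 (edgeR adjusted p = 0.000135). The change was -2.36 ± 0.23 on day 4 and -3.81 ± 0.27 on day 5, a 13.99-fold lower level (adjusted p = 8.118e-10).

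*Mcm6* was at 44.8, 58.5 and 69.3 CPM in crypts, 22.4, 17.6 and 14.5 on day 3, 6.80, 11.9 and 7.02 on day 4, and 2.22, 1.97 and 6.06 on day 5. Its groups did not overlap either, although day 5 replicate 3 lay well above the other 2 day 5 libraries. Its log2 fold change against crypts was -1.67 ± 0.29 on day 3 (edgeR adjusted p = 7.362e-05), -2.75 ± 0.31 on day 4 and -4.14 ± 0.36 on day 5 (1.226e-08), the last being 17.7-fold lower. Without day 5 replicate 3 the day 5 change was -4.80.

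*Mcm5* was at 14.4, 31.0 and 29.8 CPM in crypts, 10.98, 6.31 and 8.86 on day 3, 4.73, 5.32 and 4.36 on day 4, and 0, 0.358 and 2.94 on day 5. The day 5 libraries held 0, 4 and 17 counts of this gene, and a floor of 3 counts corresponds to 0.604 CPM in the library with none. *Mcm5* changed by -1.54 ± 0.46 on day 3 (edgeR adjusted p = 0.008608), -2.39 ± 0.49 on day 4 and -4.61 ± 0.61 on day 5 (3.215e-06). The day 5 change, with a 95% interval of -5.89 to -3.34, moved to -6.63 when day 5 replicate 3 was left out and to -4.01 when replicate 2 was. The day 3 call was lost with DESeq2 (adjusted p = 0.05271) and without day 3 replicate 2 (0.05019).

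MCM2, MCM4 and MCM7 complete the ring. *Mcm2* was at 31.2, 34.3 and 42.8 CPM in crypts, 16.9, 11.04 and 13.5 on day 3, 7.57, 13.6 and 9.08 on day 4, and 2.82, 5.82 and 6.23 on day 5. Day 3 and day 4 overlapped, while crypts lay above and day 5 below both. The change of *Mcm2* against crypts was -1.40 ± 0.27 on day 3 (edgeR adjusted p = 0.0002086), -1.84 ± 0.27 on day 4 and -2.83 ± 0.30 on day 5 (2.053e-07), the last 7.11-fold lower.

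*Mcm7* was at 43.6, 43.8 and 48.1 CPM in crypts, 28.2, 21.9 and 21.4 on day 3, 13.3, 25.1 and 20.1 on day 4, and 4.03, 11.8 and 13.7 on day 5. Only the crypts stood clear of the other groups, and each day overlapped the next. *Mcm7* changed by -0.93 ± 0.28 on day 3 (edgeR adjusted p = 0.007986), -1.22 ± 0.28 on day 4 and -2.16 ± 0.30 on day 5 (6.366e-06). In the GENCODE vM21 annotation the gene overlaps *Cops6* by 64 bases and *Ap4m1* by 421, counted over whole genes. Both lie on the other strand and share some exon bases with it. It also hosts *Mir25*, *Mir93* and *Mir106b*. No source used here gives the strand setting of the counting, so some of the reads may belong to these partners.

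*Mcm4* had the smallest changes of the ring genes against crypts. It was at 15.6, 25.8 and 33.7 CPM in crypts, 19.3, 13.98 and 12.6 on day 3, 10.6, 13.8 and 11.4 on day 4, and 10.1, 9.23 and 7.62 on day 5. Crypts and day 3 overlapped, as did day 3 and day 4, and day 5 lay below both of the earlier days. *Mcm4* changed by -0.73 ± 0.26 on day 3 (edgeR adjusted p = 0.02264), -1.08 ± 0.26 on day 4 and -1.496 ± 0.28 on day 5 (0.0001435), the last 2.82-fold lower. The day 3 call was lost without day 3 replicate 2 (0.08341), day 3 replicate 3 (0.105) or crypts replicate 3 (0.178).

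**Figure D2:**
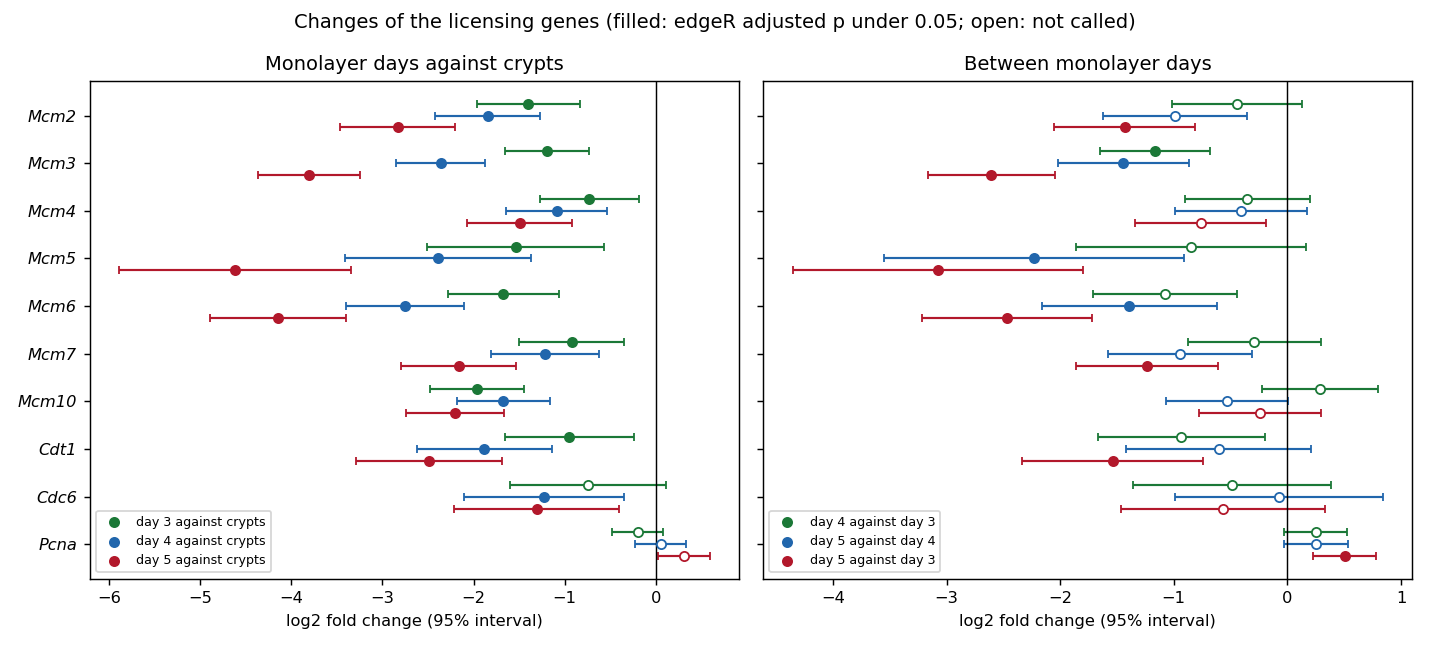
Log2 fold changes from edgeR with 95% intervals for the 10 genes, against crypts (left) and between monolayer days (right), with filled points for called changes. Changes against crypts reach -4.61 for *Mcm5* on day 5, while *Pcna* stays near 0 and is called only between day 5 and day 3.

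MCM10 helps to activate the loaded helicase. *Mcm10* was at 31.6, 40.3 and 44.4 CPM in crypts, 12.7, 8.46 and 8.94 on day 3, 10.1, 15.7 and 10.8 on day 4, and 8.66, 9.95 and 6.41 on day 5. All monolayer libraries lay below all crypts, day 3 overlapped both later days, and day 5 lay just below day 4. *Mcm10* changed by -1.96 ± 0.24 by day 3 (edgeR adjusted p = 1.459e-06), the largest of the day 3 changes among the 10 genes. Its change between day 5 and day 3 was -0.24 ± 0.26, with a 95% interval of -0.78 to 0.30 (adjusted p = 0.5588).

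CDT1 and CDC6 load the helicase. *Cdt1* was at 13.4, 20.1 and 19.6 CPM in crypts, 12.1, 7.45 and 8.18 on day 3, 3.96, 6.91 and 3.51 on day 4, and 3.83, 1.88 and 4.16 on day 5. Crypts, day 3 and day 4 did not overlap, while day 4 and day 5 did. In the annotation *Cdt1* lies within *Gm20388* on the same strand, with no shared exon. *Cdt1* changed by -0.95 ± 0.34 on day 3 (edgeR adjusted p = 0.02333), -1.88 ± 0.35 on day 4 and -2.49 ± 0.38 on day 5 (1.99e-05). The day 3 call was lost without day 3 replicate 2 (0.1002) or 3 (0.08629), or crypts replicate 2 (0.06453) or 3 (0.06672).

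*Cdc6* was the least abundant member in crypts, at 5.00, 7.95 and 6.22 CPM, with 2.89, 4.95 and 3.63 on day 3, 3.44, 2.52 and 2.18 on day 4, and 3.22, 2.51 and 2.08 on day 5. All monolayer libraries lay below the lowest crypt library, by little on day 3, and the 3 days overlapped. *Cdc6* changed by -1.23 ± 0.42 on day 4 (edgeR adjusted p = 0.01754) and -1.31 ± 0.43 on day 5 (0.01486), and its day 3 change of -0.74 ± 0.41 was not called (0.1316). Leaving out crypts replicate 2, day 4 replicate 2 or day 4 replicate 3 ended the day 4 call (0.07393, 0.055 and 0.06672). Leaving out crypts replicate 2 or day 5 replicate 3 ended the day 5 call (0.06181 and 0.05533).

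PCNA is the sliding clamp of the replication fork and also serves in DNA repair. *Pcna* was at 34.8, 39.2 and 39.5 CPM in crypts, 30.5, 37.6 and 31.0 on day 3, 38.2, 41.7 and 38.2 on day 4, and 49.95, 44.1 and 47.1 on day 5. The day 5 libraries lay above all 9 others, and day 4 lay above day 3 but within reach of the crypts. Against crypts the change of *Pcna* was -0.20 ± 0.13 on day 3 (95% interval -0.48 to 0.08, edgeR adjusted p = 0.2173), and 0.31 ± 0.13 on day 5 (0.02 to 0.59, adjusted p = 0.05993). On day 4 it was 0.05 ± 0.13 (interval -0.23 to 0.33, adjusted p = 0.7596), which turned to -0.12 with library totals in place of TMM. With library totals the day 3 change was called lower (-0.37, adjusted p = 0.02858). *Pcna* has pseudogenes in the annotation, and reads that map to several places are not in the counts, so its level is less certain.

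From day 3 to day 4, *Mcm3* alone was lower, at -1.16 ± 0.23 (edgeR adjusted p = 0.00904), so 1 of 10 members was lower and 0 higher, beside 1.17% of all genes lower and 1.59% higher. *Mcm5* changed by -0.85 ± 0.48 without a call (adjusted p = 0.4828), although its groups did not overlap. *Mcm6* changed by -1.08 ± 0.30 without a call (adjusted p = 0.06905), and was called with DESeq2 (0.01377). The *Mcm3* call was lost without day 3 replicate 1 (0.0529) or day 4 replicate 1 (0.08449), which left 0 members called.

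From day 4 to day 5, *Mcm3* (-1.45 ± 0.27, edgeR adjusted p = 0.002443), *Mcm6* (-1.39 ± 0.37, 0.02477) and *Mcm5* (-2.23 ± 0.63, 0.03557) were lower. That is 3 of 10 members lower and 0 higher, beside 4.2% of all genes lower and 3.36% higher. Without day 4 replicate 2, day 5 replicate 1 or day 5 replicate 2 the count was 1. Without day 5 replicate 1, *Mcm5* was at -1.80 (adjusted p = 0.08206) and *Mcm6* at -1.24 (0.07862). The *Mcm5* call held in 10 of 18 alternatives and was lost with DESeq2 (0.05491), with only the 2 groups compared (0.1109) and without any 1 of 6 libraries. The *Mcm6* call was also lost with only the 2 groups compared (0.08245). *Mcm2* at -0.99 ± 0.30 (adjusted p = 0.0534) and *Mcm7* at -0.95 ± 0.30 (0.06328) were not called.

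Between day 3 and day 5, 6 of 10 members were lower and 1 higher, beside 10.5% of all genes lower and 9.9% higher. The same comparison gave 6 lower without day 5 replicate 1. *Mcm5* changed by -3.08 ± 0.61 (edgeR adjusted p = 0.001247), *Mcm3* by -2.61 ± 0.27 (1.37e-06) and *Mcm6* by -2.47 ± 0.35 (5.678e-05). *Cdt1* changed by -1.54 ± 0.38 (adjusted p = 0.006642), *Mcm2* by -1.43 ± 0.30 (0.001812) and *Mcm7* by -1.24 ± 0.30 (0.005704). *Pcna* rose by 0.50 ± 0.13 (adjusted p = 0.01081), which was not called without day 3 replicate 1 (0.06158) or day 3 replicate 3 (0.06042). *Mcm4* at -0.76 ± 0.27 (0.05681) and *Cdc6* at -0.57 ± 0.43 (0.3886) were not called.

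The summed level of *Mcm2* to *Mcm7* was 240.0 ± 48.7 CPM in crypts, 102 ± 17.8 on day 3, 64.9 ± 15.4 on day 4 and 31.9 ± 9.57 on day 5, or 37.2 on day 5 without replicate 1. The *Malat1* share moved in the opposite direction over these groups. Of that sum, *Mcm6* held 24.0 ± 0.839% in crypts, 17.7 ± 1.52% on day 3, 13.1 ± 1.85% on day 4 and 10.3 ± 4.38% on day 5. *Mcm4* went the other way, from 10.2 ± 1.82% to 14.9 ± 0.874%, 18.7 ± 2.10% and 30.9 ± 13.9%. The *Mcm4* share in day 5 replicate 1 was 45.9%, of 109 counts for the 6 genes together, and was 28.1 and 18.6% in the other day 5 libraries, whose mean was 23.4%. Without day 5 replicate 1 the day 5 mean was 10.4% for *Mcm6* and 34.7% for *Mcm7*. *Mcm2* held nearly the same share throughout, between 13.5 ± 1.54% and 15.4 ± 1.32%. The shares are a description and were not tested.

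**Figure D3:**
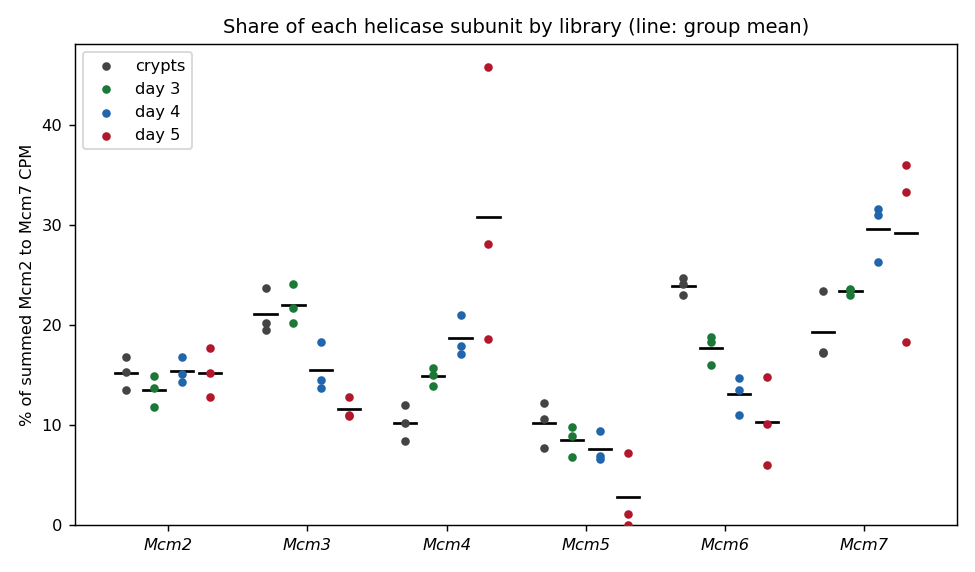
Share of each subunit gene in the summed *Mcm2* to *Mcm7* CPM of every library, in percent on an axis from 0, with points for libraries and lines for group means (n = 3). From crypts to day 5 the mean declines from 24.0 to 10.3% for *Mcm6*, 21.1 to 11.6% for *Mcm3* and 10.2 to 2.76% for *Mcm5*. It rises from 10.2 to 30.9% for *Mcm4* and from 19.3 to 29.25% for *Mcm7*, with wide scatter on day 5.

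Levels of different genes were compared per kilobase of annotated exon (GENCODE vM21), as CPM per kb. In crypts *Pcna* was highest at 24.9 ± 1.73 CPM per kb, followed by *Mcm3* at 16.8 ± 4.27, *Mcm6* at 13.2 ± 2.81 and *Mcm7* at 12.3 ± 0.694. The spreads of *Mcm3*, *Mcm6* and *Mcm7* overlapped. *Mcm2* was at 10.7 ± 1.78, and *Cdt1* at 8.08 ± 1.70, *Mcm10* at 7.82 ± 1.31, *Mcm5* at 7.25 ± 2.68 and *Mcm4* at 6.98 ± 2.53 did not differ beyond their spread. *Cdc6* was lowest at 1.34 ± 0.310. On day 5 *Pcna* was at 31.0 ± 1.93 CPM per kb, and *Mcm7* at 2.67 ± 1.39 and *Mcm4* at 2.50 ± 0.347 came next. *Mcm5* was then lowest at 0.318 ± 0.465, below *Cdc6* at 0.544 ± 0.121 but within their spread.

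The sum of helicase transcripts and the level of *Pcna* therefore parted. In CPM, the ratio of the *Mcm2* to *Mcm7* sum to *Pcna* was 6.30 ± 0.892 in crypts, 3.14 ± 0.789 on day 3, 1.64 ± 0.314 on day 4 and 0.685 ± 0.222 on day 5, with no overlap between successive groups. Genes of mitosis, a list of 30 such as the proliferation marker *Mki67*, are set beside this. As a percentage of the crypt mean, the *Mcm2* to *Mcm7* sum was 51.1, 38.9 and 37.7 on day 3, 20.9, 33.7 and 26.5 on day 4, and 9.15, 13.7 and 17.1 on day 5. The mitosis sum was 65.4, 54.3 and 50.9 on day 3, 34.9, 51.3 and 49.1 on day 4, and 7.35, 6.39 and 7.11 on day 5. The mitosis libraries of day 3 and day 4 overlapped narrowly, with day 4 replicate 2 at 51.3 and day 3 replicate 3 at 50.9. The helicase libraries did not overlap, with the same 2 libraries closest, at 33.7 and 37.7. The difference between the 2 courses was not tested.

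**Figure D4:**
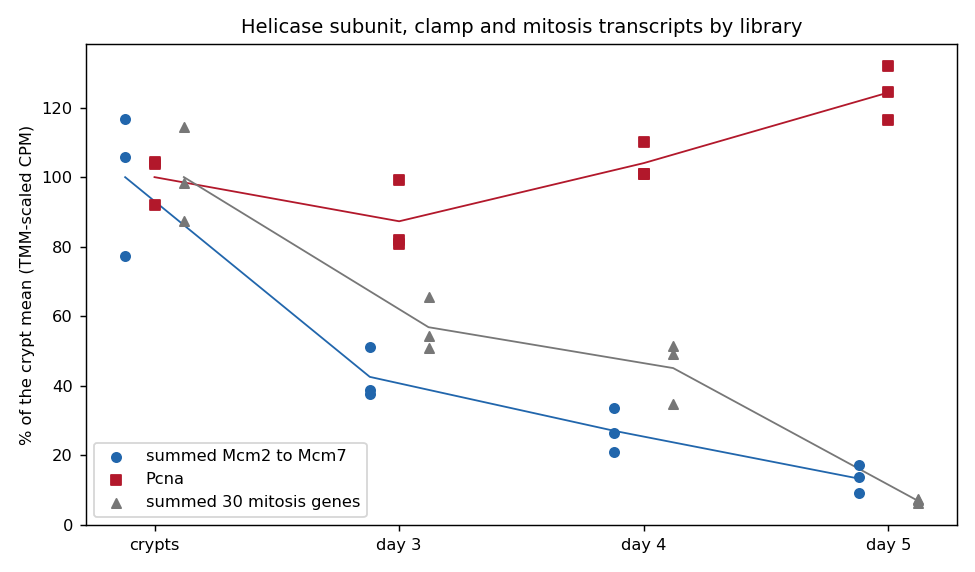
Summed *Mcm2* to *Mcm7*, *Pcna* and the summed 30 mitosis genes in every library as a percentage of the crypt mean (linear axis from 0; lines join group means, n = 3). The helicase sum lies at 9.15 to 17.1% and the mitosis sum at 6.39 to 7.35% on day 5, while *Pcna* lies at 116.5 to 132%.

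By count, 18 of 30 mitosis genes were lower and 1 higher on day 3 against crypts (median -0.77), and 1 was lower from day 3 to day 4 (median -0.32). From day 4 to day 5, 29 of 30 were lower (median -2.85, beside -0.0047 over all genes tested), and 28 without day 5 replicate 1. The background shares of genes lower were 27.9, 1.17 and 4.2% in these comparisons. Without day 3 replicate 2 the first of these counts was 11. *Ccnb1*, the cyclin of mitotic entry, was at 16.9 ± 7.58 CPM in crypts, 13.7 ± 5.42 on day 3, 9.52 ± 2.39 on day 4 and 0.356 ± 0.453 on day 5. *Bub1*, a spindle checkpoint kinase, was at 14.5 ± 1.96, 8.17 ± 1.41, 6.94 ± 1.36 and 0.272 ± 0.0725. *Nuf2* of the kinetochore changed by -1.79 ± 0.48 (edgeR adjusted p = 0.003714) and the separase gene *Espl1* by -1.63 ± 0.31 (0.0001818) by day 3.

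Of 10 genes for origin recognition and loading control, 3 were lower and 1 higher on day 3 against crypts (median -0.24), 2 lower and 1 higher on day 5 (median -0.27), and 0 were called between day 5 and day 3 by edgeR (median 0.01). Beside the 27.9, 28.9 and 10.5% of all genes lower in these comparisons, these counts are near the background against crypts. The day 5 count of lower genes was also 2 without day 5 replicate 1. At an unadjusted p under 0.05 that last comparison gave 2 lower and 1 higher, and DESeq2 called 0. *Orc1* had the largest fall of the list against crypts, at -1.70 ± 0.56 on day 3 (edgeR adjusted p = 0.0152) and -3.04 ± 0.63 on day 5 (0.0004497). On both days *Orc4* was higher, and *Orc2*, *Orc3*, *Orc5* and *Orc6* were not called. *Gmnn*, which encodes the CDT1 inhibitor geminin, was at 15.0 ± 2.28 CPM in crypts, 8.45 ± 1.16 on day 3, 10.4 ± 2.76 on day 4 and 13.1 ± 4.01 on day 5. Of the 6 comparisons it was called in 1, lower on day 3 against crypts (edgeR adjusted p = 0.01643). *Mcmbp*, whose product binds MCM proteins, was at 80.5 ± 10.0, 60.8 ± 0.523, 64.3 ± 1.99 and 64.7 ± 4.37 CPM. Without day 3 replicate 2 or crypts replicate 3 the day 3 count of lower genes was 1.

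On day 3 against crypts 8 of 16 genes that fire origins were lower and 1 higher (median -0.82), and on day 5 it was 13 and 0 (median -2.35). Between day 3 and day 5, 9 were lower and 1 higher (median -1.37). The shares of all genes lower were 27.9, 28.9 and 10.5%, and the day 5 count against crypts was also 13 without day 5 replicate 1. *Clspn*, a checkpoint adaptor at the fork, was at 32.6 ± 6.45 CPM in crypts, 9.11 ± 1.73 on day 3, 7.27 ± 1.36 on day 4 and 0.630 ± 0.355 on day 5. *Cdc45*, a cofactor of the active helicase, was at 10.8 ± 1.81, 3.604 ± 1.45, 1.57 ± 0.960 and 0.522 ± 0.754. *Wdhd1*, which ties the helicase to DNA polymerase alpha, fell by 1.88 ± 0.34 by day 3 (edgeR adjusted p = 0.0001309).

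Of 28 genes for fork enzymes, 14 were lower and 2 higher on day 3 against crypts (median -0.91), and 23 lower and 2 higher on day 5 (median -1.58), beside 27.9 and 28.9% of all genes lower and 28.4% higher on both days. The day 5 count of lower genes was also 23 without day 5 replicate 1. Without day 3 replicate 3 the day 3 count of lower genes was 8. *Pole*, the catalytic subunit of DNA polymerase epsilon, went from 27.7 ± 1.77 CPM in crypts to 7.85 ± 0.759, 3.36 ± 2.25 and 0.794 ± 0.251 at the 3 days. *Pola1*, the catalytic subunit of DNA polymerase alpha, was at 34.4 ± 3.21, 11.5 ± 2.07, 4.59 ± 3.46 and 1.19 ± 1.43. *Pold4*, the small subunit of DNA polymerase delta, went the other way, from 11.4 ± 2.40 CPM in crypts to 123 ± 5.92 on day 3 and 142 ± 12.9 on day 5. Its rise on day 3 was 3.42 ± 0.15 (edgeR adjusted p = 7.009e-13).

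**Figure D5:**
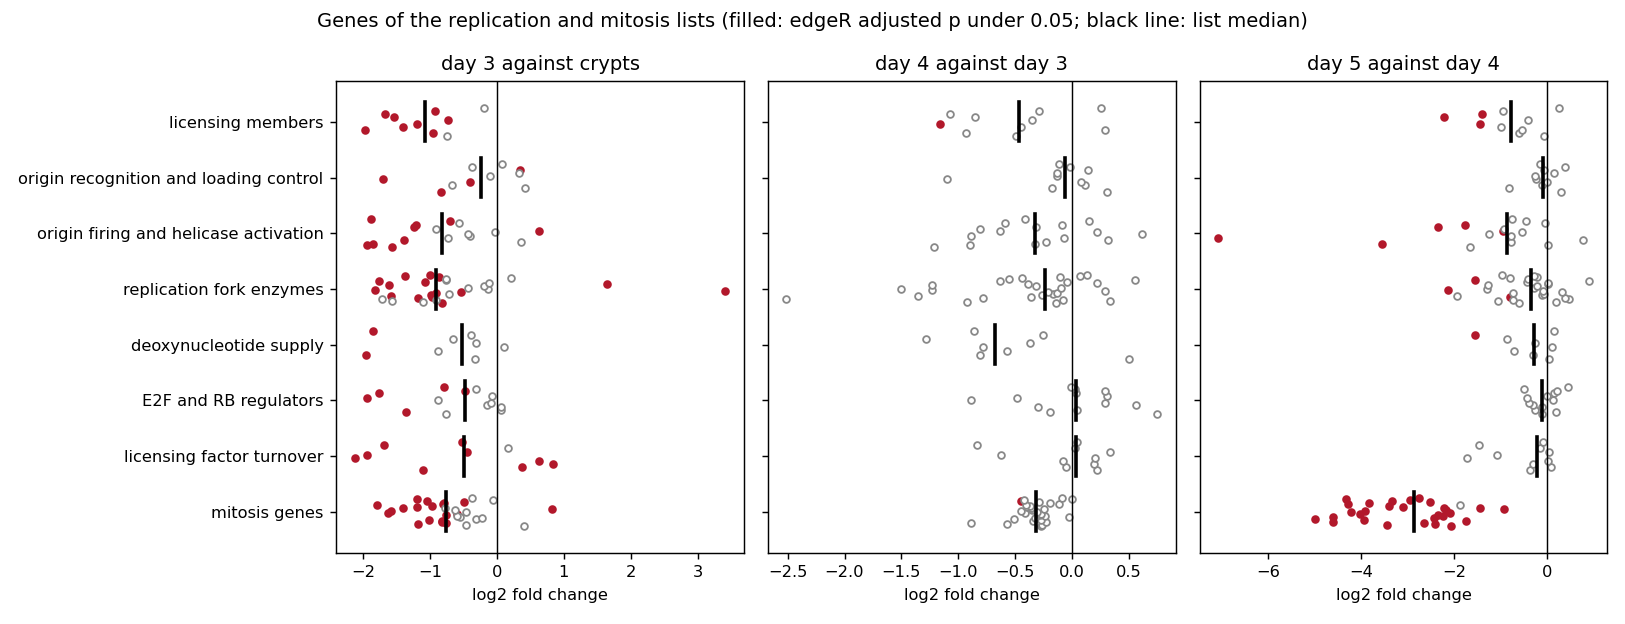
Log2 fold changes of every gene of the licensing set and of 7 lists, for day 3 against crypts, day 4 against day 3 and day 5 against day 4, with filled points for called changes and black lines for list medians; the axes differ between panels. The mitosis median lies at -0.77, -0.32 and -2.85, and that of the licensing genes at -1.07, -0.47 and -0.78.

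Of 8 genes for deoxynucleotide supply, 2 were lower on day 3, 7 on day 4 and 6 on day 5 against crypts, with 0 higher by edgeR, at an unadjusted p under 0.05 and by DESeq2. The shares of all genes lower were 27.9, 28.4 and 28.9%, so the day 3 count is near the background, and the day 5 count was also 6 without day 5 replicate 1. The thymidylate synthase gene *Tyms* was among those lower on day 3 (-1.85 ± 0.32, edgeR adjusted p = 7.973e-05). *Rrm2*, a subunit of ribonucleotide reductase, changed by -2.15 ± 0.43 between day 3 and day 5 (adjusted p = 0.001278), and the thymidine kinase gene *Tk1* by -1.81 ± 0.27 (8.365e-05). Of 13 E2F and RB genes, 5 were lower on day 3 and 6 on day 5 against crypts, also 6 without day 5 replicate 1, beside 27.9 and 28.9% of all genes. In both comparisons 0 were higher by edgeR, at an unadjusted p under 0.05 and by DESeq2. *E2f8*, an atypical E2F repressor, went from 45.0 ± 3.87 CPM in crypts to 11.8 ± 2.78 on day 3 and 6.51 ± 3.97 on day 5. *Rbl1*, which encodes the pocket protein p107, fell to 14.8 ± 2.25 CPM on day 3 from 49.7 ± 15.0 and was at 16.9 ± 2.55 on day 5. *Rbl2*, for the pocket protein p130, was lower on day 3 and rose by 0.50 ± 0.14 from day 3 to day 5 (adjusted p = 0.01255).

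Among 10 genes for the turnover of licensing factors, 6 were lower and 3 higher on day 3 against crypts, and 5 lower and 3 higher on day 5, with 5 lower also without day 5 replicate 1. Beside these stand 27.9 and 28.9% of all genes lower and 28.4% higher, so the counts of higher genes are near the background. Without day 3 replicate 2 the day 3 count of lower genes was 3, which is near it too. *Dtl*, the substrate receptor that directs CDT1 to degradation at PCNA on DNA, went from 11.5 ± 1.92 CPM in crypts to 2.64 ± 1.03 on day 3 and 0.859 ± 0.570 on day 5. *Atad5*, which helps unload PCNA from DNA, was at 26.1 ± 9.31, 12.2 ± 0.221, 14.2 ± 1.91 and 10.95 ± 3.95 CPM.

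Across the 9 monolayer libraries, members were compared with the mean log2 CPM of the helicase genes, each helicase gene being left out of the mean it was compared with. Pearson's r was 0.96 for *Mcm2*, 0.95 for *Mcm6*, 0.94 for *Mcm3*, 0.93 for *Mcm5*, 0.91 for *Mcm7*, 0.81 for *Cdt1* and 0.73 for *Mcm4*. It was 0.39 for *Mcm10*, 0.26 for *Cdc6* and -0.85 for *Pcna*. These libraries fall into 3 days and share depth and scaling with the genes compared, so r is a description over 9 points.

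Among 10013 candidates outside the set, the genes most like the helicase mean included *Pag1* (0.9907), *Hist1h3b* (0.987), *Rsl1d1* (0.9864), *Hnrnpa0* (0.9858), *Fkbp4* (0.9844), *Serpinb5* (0.9831), *Kntc1* (0.9817), *Uchl4* (0.9815) and *Efna5* (0.9804), by Pearson's r over the same 9 libraries. Their levels against crypts were mixed. *Kntc1*, a kinetochore gene, was at 15.3 ± 2.85 CPM in crypts, 11.1 ± 4.41 on day 3, 5.80 ± 0.694 on day 4 and 0.641 ± 0.699 on day 5. *Efna5*, an ephrin ligand, was at 0.391 ± 0.678 CPM in crypts and 48.5 ± 2.44, 42.0 ± 4.70 and 32.2 ± 4.98 at the 3 days. *Hist1h3b* and *Uchl4* have near-identical copies and are uncertain.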

How the data were processed

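RNA of 12 libraries was counted per gene. The values are the counts deposited by the authors, whole numbers of reads per gene symbol with no normalization. The submitters' processing notes name the tools CASAVA 1.9, TopHat2 and HTSeq and the builds mm10 and mm9, without saying which build served for what. Annotation and strand setting: not given in the sources used here. Each file held 23420 symbols and 5 summary lines, which stayed out of all totals. Of all reads, 31.7 to 43.5% lay in genes, 38.7 to 49.0% in no feature and 14.2 to 19.2% had no unique alignment, and those were left out of the gene counts. Precision follows depth, 4518314 to 14290393 gene counts a library, so that 3 counts are worth 0.210 to 0.664 CPM before TMM scaling. Floors cover counting error only.

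The test was run with edgeR 4.0.16 under R 4.3.3. The filter was filterByExpr with a minimum count of 10, TMM factors ran from 0.910 to 1.12, and glmQLFit and glmQLFTest were run in 1 fit of all 12 libraries with group as the term. Benjamini-Hochberg adjustment ran over 12863 genes, with calls under 0.05. The standard error is the fold change divided by the root of F. The alternatives were library totals, upper quartile factors, DESeq2 1.42.0, no filter, only the 2 groups compared, a block for the replicate number, and each library left out. The fit was tested on simulated data for day 3 against crypts and day 5 against day 3. Levels set to 0.5-fold were recovered for 28 and 26 of 50 genes. Levels set to 1.5-fold were recovered for 15 and 16 of 50, and to 4-fold for 45 and 42. Of 12663 unchanged genes, 4 and 10 came out as changed. A change that was not called is therefore not shown to be absent. The simulated data held only 50 changed genes at each level. In the real data 27.9% of genes were lower and 28.4% higher on day 3 against crypts. Between day 5 and day 3 it was 10.5 and 9.9%. Since adjustment and scaling depend on that share, the simulated rates may not carry over, least of all to the comparisons with crypts. A chi-square comparison of counts found no duplicate library.

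All 10 members were named. From each list, up to 4 called genes at 4 CPM or more on average were named, the 2 largest changes at day 5 against day 3 and the 2 at day 3 against crypts. The 10 most similar genes were ranked by Pearson's r of log2 CPM (prior count 2) over the 9 monolayer libraries, among genes with at least 4 CPM. *Mki67* and *Orc1* to *Orc6* were named outside this rule. Some genes that the rule selects do not appear in the text. The members and lists were chosen with earlier results of these data known. A planned comparison of protein sequences was not made here.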

Additional observations from a re-analysis of the deposited data

Results flagged for a closer look

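Members whose level differed between monolayer days by edgeR's quasi-likelihood test are listed here, since both groups of such a comparison were cultured monolayers. The labels do not say whether the days shared animals, cultures or a batch. *Mcm3* differed by -1.16 (log2 fold change) between day 4 and day 3, -1.45 between day 5 and day 4, and -2.61 between day 5 and day 3. *Mcm5* differed by -2.23 between day 5 and day 4 and by -3.08 between day 5 and day 3, values that were -4.25 and -5.10 without day 5 replicate 3, and -1.63 (no longer called, adjusted p = 0.1868) and -2.48 without day 5 replicate 2. *Mcm6* differed by -1.39 and -2.47 in the same comparisons, which were -2.05 and -3.13 without day 5 replicate 3. Without day 5 replicate 2 the *Mcm6* change between day 5 and day 4 was -1.02 and no longer called (edgeR adjusted p = 0.1631). *Mcm2* (-1.43), *Mcm7* (-1.24) and *Cdt1* (-1.54) were lower at day 5 than at day 3, and *Pcna* (0.50) was higher. Groups held 3 libraries, so no test for a single outlying library was made.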

How the results depend on the processing

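Day 5 levels of *Mcm5* rest on 0, 4 and 17 counts. For members against crypts, the day 4 and day 5 counts of lower genes were 8 to 9 with 1 library left out, and the day 3 count was 5 to 8 beside 8. From day 3 to day 4 the count of 1 lower member became 2 with DESeq2, with no filter and with only the 2 groups compared, and 0 to 2 with 1 library left out. From day 4 to day 5 the count of 3 became 5 with no filter, 1 with only the 2 groups compared, and 1 to 4 with 1 library left out. The 1 higher member between day 3 and day 5 became 0 to 1. *Pcna* at day 4 against crypts reversed to -0.12 with library totals, and *Cdc6* between day 4 and day 5, at -0.08, ranged from -0.24 to 0.13 with a library left out, above 0 without day 4 replicate 1 (0.13) or day 5 replicate 3 (0.05). None of these was called. The cause was not tested.

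List counts with each library left out were added after seeing the data. At day 3 against crypts they were 1 to 4 beside 3 for origin recognition, 8 to 16 beside 14 for fork enzymes, 3 to 6 beside 6 for turnover and 11 to 21 beside 18 for mitosis. They were 1 to 2 beside 2 for origin recognition at day 5 against crypts. From day 4 to day 5 they were 3 to 6 beside 5 for origin firing, 0 to 5 beside 3 for fork enzymes and 0 to 1 beside 0 for E2F and RB genes. Over all genes, 151 were lower and 205 higher from day 3 to day 4. DESeq2 gave 266 and 365, no filter 275 and 361, and only the 2 groups compared 561 and 583.

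With the replicate number as a block, the members lower were 8, 9 and 9 against crypts and 1, 3 and 6 between days, as without it. Same-numbered libraries did not deviate together (r from -0.03 to 0.06 over 18 pairs, 6 of 18 correlating best with their own number). With few libraries a group, such values cannot show that no animal or culture was shared. The numbers served as names, since the labels do not say what they mark.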
